A study of Mus musculus with 2 samples.

Results

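The miR-15, miR-16, miR-195 and miR-497 genes encode microRNAs with the same bases 2 to 8, and they lie in 3 genomic clusters of 2 genes each. They were described here in whole lung of mouse embryos. The members were given by name and not by their levels: Mir15a and Mir16-1 on chromosome 14, Mir15b and Mir16-2 on chromosome 3, and Mir497 and Mir195a on chromosome 11. These are 6 genes among 1973 microRNA genes in the count tables. All samples belong to 1 group, lung of strain B6NCrl at embryonic day 15.5, healthy, both sexes pooled, with no treatment or allele named in the labels. The labels give 78 embryos for the pool of replicate 1 and 62 for that of replicate 2, and 1 donor identifier for both. Each pool was sequenced as 1 library of RNA inserts under 30 nt. With 1 group there is no comparison of conditions, and the data give the level of each gene and the differences between genes within a library. In bulk tissue, fewer cells of a type and less RNA per cell cannot be told apart.

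MicroRNAs are cut from hairpin precursors and guide Argonaute proteins to messenger RNAs, mainly through pairing of bases 2 to 8, the seed. MicroRNAs of the miR-15 and miR-16 family are known to repress cyclins, cyclin-dependent kinases and the survival protein Bcl2, and so to slow the cell cycle. The cluster of Mir15a and Mir16-1 is known for its loss, with the noncoding host gene Dleu2, in chronic lymphocytic leukaemia. The cluster of Mir15b and Mir16-2 lies in Smc4, which encodes a condensin subunit that compacts mitotic chromosomes. Mir195a is known from the heart, where it rises around birth as cardiomyocytes leave the cell cycle.

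The mature products of the 5p arms are shown to let the shared and the differing bases be seen. Sequences are from RefSeq on GRCm38.p6, 5′ to 3′, with bases 2 to 8 in capitals. Mature entries of all 6 genes and hairpin entries of all but Mir15a matched.
miR-15a-5p: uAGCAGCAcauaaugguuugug
miR-15b-5p: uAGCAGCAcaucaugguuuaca
miR-16-5p: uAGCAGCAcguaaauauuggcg
miR-195a-5p: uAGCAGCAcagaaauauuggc
miR-497a-5p: cAGCAGCAcacugugguuugua
miR-322-5p: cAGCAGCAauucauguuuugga
miR-503-5p: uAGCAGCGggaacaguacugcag

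All 5 products of the 6 genes carried the same 7-base seed. Beyond it they fell apart in the 3′ part. Compared base by base from the 5′ end without gaps, miR-16-5p and miR-195a-5p differed at 2 of 21 positions, and miR-15a-5p and miR-15b-5p at 4 of 22. The most distant pair was miR-16-5p and miR-497a-5p, with 11 of 22 positions different. The 2 miR-15 genes and miR-497a shared more positions with each other (16 to 18 of 22) than miR-497a did with miR-195a-5p, its cluster partner (12 of 21). Of 1738 mature entries in the RefSeq table, 11 (0.633%) had this seed, and miR-322-5p was among them. miR-503-5p matched in bases 2 to 7 only.

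The hairpins of the 2 miR-16 genes are shown because what they share decides which of their reads could be counted. Capitals mark the longest run that both hold.
Mir16-1 hairpin: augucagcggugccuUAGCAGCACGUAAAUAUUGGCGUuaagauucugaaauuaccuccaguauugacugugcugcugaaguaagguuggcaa
Mir16-2 hairpin: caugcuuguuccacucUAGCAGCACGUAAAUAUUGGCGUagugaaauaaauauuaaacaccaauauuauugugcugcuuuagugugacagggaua

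The shared run was 23 nt long and held the whole of miR-16-5p (22 nt) with 1 base after it and none before it. A read of miR-16-5p as annotated therefore fits both genes equally well. The 3p products, in contrast, differed at 10 of 22 positions.
miR-16-1-3p: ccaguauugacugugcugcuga
miR-16-2-3p: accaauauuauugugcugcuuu
Reads that mapped to several places stood on a summary line of their own, 3588198 in replicate 1 (31.4% of all reads) and 4144809 in replicate 2 (30.6%). They were taken to be in no gene. How many of them were miR-16-5p is not known from the count tables. The values of Mir16-1 and Mir16-2 given below are thus reads that could be placed, such as 3p products or 5p reads with extra bases. The counts do not tell these kinds of reads apart, so they do not give the level of miR-16-5p. For the other 4 genes no other hairpin among those searched (1003 or 1004 per gene) held the whole 5p product. The longest run any of them shared with another hairpin was 16 nt, between Mir195a and Mir195b. For Mir15a the mature arms were searched in place of the hairpin.

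The genes of each cluster are close enough to be cut from a single primary transcript. On the minus strand of chromosome 14 (mm10), Mir15a (ENSMUSG00000093007, 61632027 to 61632110) comes first in the direction of transcription and Mir16-1 (ENSMUSG00000092995, 61631880 to 61631972) follows after 54 nt. Both lie inside Dleu2 and in an intron of all 8 Dleu2 transcripts that span them. A further short Dleu2 transcript overlaps Mir16-1 in part. On the plus strand of chromosome 3, Mir15b (ENSMUSG00000065580, 69009772 to 69009835) precedes Mir16-2 (ENSMUSG00000065606, 69009902 to 69009996) by 66 nt, both in an intron of all 5 Smc4 transcripts that span them. On the plus strand of chromosome 11, Mir497 (70234717 to 70234800) and Mir195a (ENSMUSG00000065411, 70235042 to 70235135) are 241 nt apart. No annotated gene holds that pair on its strand. The nearest annotated protein-coding genes, 0610010K14Rik and the overlapping Gm21988, lie 71 nt from Mir195a on the opposite strand.

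Mir497 itself had no row in the count tables. Its reads were taken from the row of Mir497b (ENSMUSG00000070109, 70234692 to 70234816), a gene annotated on the minus strand across the same place. Of 9051 reads in that row in replicate 1, 9049 lay opposite to Mir497b, on the strand of Mir497 (99.98%, exact 95% interval 99.92 to 99.997%). In replicate 2 all 10699 reads did (exact 95% interval from 99.97%). On the Mir497b strand, 2 reads and 0 reads were counted. The other 5 genes showed the reverse picture, with every read on the annotated strand and 0 on the opposite strand in both libraries. These intervals, and those further on, hold the error of counting alone, as the sources name no molecular identifiers.

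Levels are given in CPM, counts per 1000000 counts on the annotated strand of all microRNA genes (5354530 in replicate 1, 6489390 in replicate 2). A count was worth 0.187 and 0.154 CPM. A read stands for a whole short product, so values were not divided by precursor length. All 6 genes reached 10 counts or more in each library, the rule for detection here, as did 18.1% of all genes in the tables. The lowest value of any member, 2456 counts of Mir16-2 in replicate 1, was far above that minimum.

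The Dleu2 cluster gave the highest values. Mir15a had 21336 counts in replicate 1 and 26742 in replicate 2, or 3985 and 4121 CPM (mean 4053 ± 96.3, SD, n = 2), which placed it 44th of 1973 genes. Mir16-1, its neighbour, had 12013 and 13535 counts, or 2244 and 2086 CPM (2165 ± 112, 65th). Mir15a exceeded Mir16-1 in both libraries, by 1.78-fold and 1.98-fold.

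The Smc4 cluster gave the lowest values. Mir15b had 6589 and 7087 counts, or 1231 and 1092 CPM (1161 ± 97.9, 89th). Mir16-2 had 2456 and 2750 counts, or 459 and 424 CPM (441 ± 24.7, 123rd). As in the Dleu2 cluster, the miR-15 gene stood above the miR-16 gene in each library, here by 2.68-fold and 2.58-fold. Identical 5p reads of the miR-16 genes could not be placed. If all reads of the miR-15 genes were placed, these folds between miR-15 and miR-16 genes are upper values for the whole output of the hairpins.

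The chromosome 11 cluster lay between these. Mir497 had 1690 and 1649 CPM (1669 ± 29.2, 73rd), and Mir195a had 8356 and 9732 counts, or 1561 and 1500 CPM (1530 ± 43.0, 77th). All ranks were taken among annotated-strand values. Mir497 is thus not counted above Mir195a, Mir15b or Mir16-2 in their ranks. The 2 genes were nearly level, with Mir497 higher by 1.08-fold in replicate 1 and 1.10-fold in replicate 2. In placed reads no other cluster here had members so close. Each of the other clusters holds a miR-16 gene with unplaced 5p reads, while here neither 5p product is shared with another gene. How close the members are in all reads can therefore not be ranked across clusters.

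**Figure D1:**
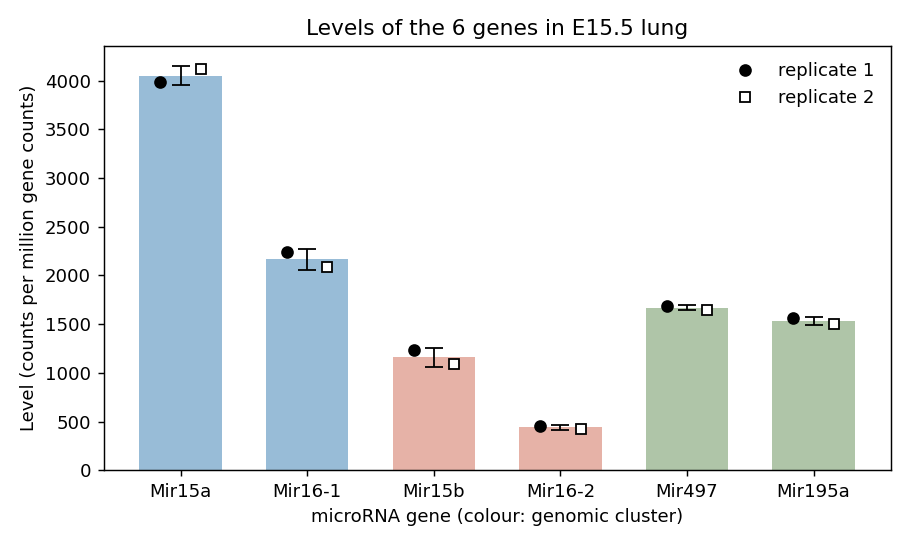
Level of each gene in CPM (y axis, from 0), coloured by cluster. Bars are means, error bars the SD of 2 replicates, filled circles replicate 1 and open squares replicate 2. Mir15a stands at 3985 and 4121, and Mir16-2 is lowest in placed reads, at 459 and 424.

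**Figure D2:**
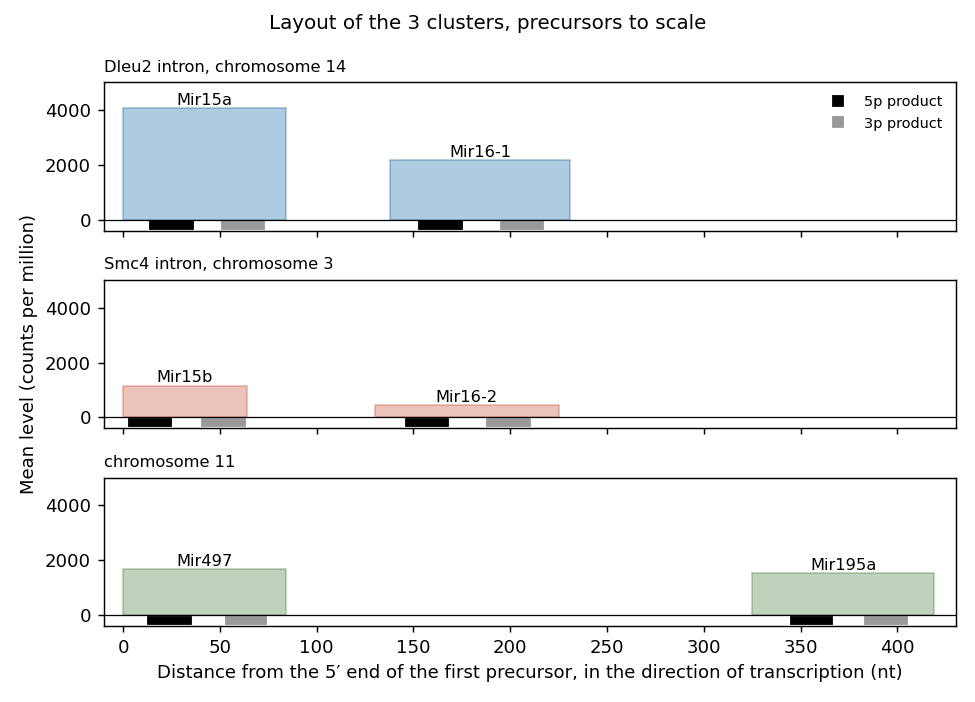
The 3 clusters drawn to scale in nt from the 5′ end of the first precursor, with box height giving the mean level in CPM and black and grey blocks the 5p and 3p products. In the Dleu2 and Smc4 clusters the first precursor is the higher of the pair in placed reads, and on chromosome 11 both are nearly level across a gap of 241 nt. Reads that fit both miR-16 genes are not in the boxes.

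From high to low the order was Mir15a, Mir16-1, Mir497, Mir195a, Mir15b and Mir16-2, the same in both libraries. The values of neighbours in this order did not overlap between the libraries. The smallest step was from Mir497 to Mir195a (log2 difference 0.13 ± 0.015, SD of the within-library difference, n = 2), followed by Mir16-1 to Mir497 (0.37 ± 0.049) and Mir195a to Mir15b (0.40 ± 0.081). Every step exceeded its SD. The place of the miR-16 genes in this order holds only for the reads that could be placed.

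Comparisons between the clusters asked which of the paralogous loci supplied more of the family's reads. Mir15a, free of the shared product, exceeded Mir15b by 3.24-fold in replicate 1 and 3.77-fold in replicate 2 (log2 difference 1.81 ± 0.16, SD, n = 2). Mir16-1 exceeded Mir16-2 by 4.89-fold and 4.92-fold, a ratio that was nearly the same in both pools (log2 2.29 ± 0.0063). Summed over its genes, the Dleu2 cluster had 6228 and 6207 CPM and the Smc4 cluster 1689 and 1516 CPM, a difference of 3.89-fold (log2 1.96 ± 0.11). Both the Mir16-1 to Mir16-2 ratio and the cluster sums cover placed reads only, so which locus supplied more miR-16-5p is not shown. The level of Dleu2 and Smc4 transcripts was not measured in these libraries.

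Together, Mir497 and Mir195a had 3251 and 3148 CPM, 2.44-fold less than the 4 miR-15 and miR-16 genes summed (log2 difference -1.29 ± 0.0071, SD, n = 2). The summed counts of the 6 genes came to 1.10% ± 0.021 of the annotated-strand total (SD, n = 2). The reads of Mir497 are not part of that total, and without them the figure is 0.935%. Of the placed reads of the 6 genes, the Dleu2 cluster held 56.4%, the chromosome 11 cluster 29.0% and the Smc4 cluster 14.5% (means of both libraries). Mir15a alone held 36.8%. For Mir16-1 and Mir16-2 all values of this paragraph cover placed reads only. How the clusters share all reads of the family is therefore not known.

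For 7 comparisons (Mir15a with Mir15b, the Dleu2 with the Smc4 cluster, the 3 pairs within clusters, the chromosome 11 cluster with the other 4 genes, and Mir322 with all 6) an exact 2-sided permutation test on log2 CPM gave p = 0.333 each. The Benjamini-Hochberg adjusted values over the 7 were also 0.333. That is the smallest value this test can give when each side has 2 values. Both sides came from the same libraries, and an exact 2-sided permutation test of the within-library differences (sign flips, added after seeing the data) gave p = 0.5 each, the smallest that 2 pairs allow. Neither exact test could pass 0.05, so the size of each difference is given with its within-library SD. Nothing in the labels gives litters or dates, so this spread may be partly technical. Ligation or amplification that favours some sequences over others was not tested.

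Most of the reads placed in genes with this seed were in a gene outside the 3 clusters. Mir322, the mouse counterpart of human miR-424 in an X-linked cluster, had 71997 and 68840 CPM, 6.39-fold more than the 6 genes together (log2 2.68 ± 0.018, SD, n = 2). Among the 11 genes with the seed, whose placed reads came to 8.14% ± 0.244 of all counts, Mir322 held 86.5% ± 0.148 and the 6 genes 13.5% ± 0.148 (SD, n = 2). Mir15a held 4.98% of these reads and Mir16-2 0.542%. The other 4 carriers, Mir195b, Mir6342, Mir6353 and Mir6419, had 1 read between them, of Mir195b in replicate 1. A count of 0 allows up to 0.560 CPM in replicate 1 and 0.462 CPM in replicate 2, the value of 3 counts. Mir503, with the 6-base match, had 2028 and 1725 CPM, between Mir16-1 and Mir497 in its mean of 1876 ± 214 CPM. With reads of miR-16-5p on the line of reads mapped to several places, the family's part of the seed-carrying reads is a lower value. That line holds more reads than Mir322 does in each library (385510 and 446727 counts), so whether Mir322 or the family has more reads in all is not known from these tables.

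**Figure D3:**
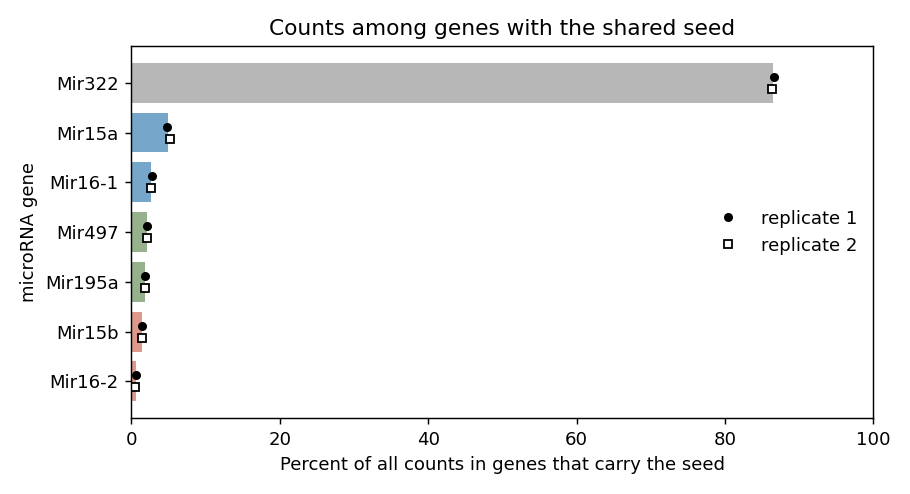
Percent of all counts in genes with the shared seed (x axis, 0 to 100) for the 7 genes above 1 CPM. Bars are means of 2 replicates, filled circles replicate 1 and open squares replicate 2. Mir322 holds 86.5%, Mir15a 4.98%, and each of the other 5 genes less than Mir15a.

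The pools differed little in these genes. Replicate 2 over replicate 1, Mir15a was at 1.03-fold (95% counting interval 1.02 to 1.05). The lowest ratio was that of Mir15b, 0.887 (0.858 to 0.918), followed by Mir16-2 at 0.924 (0.875 to 0.976), Mir16-1 at 0.930 (0.907 to 0.953), Mir195a at 0.961 (0.933 to 0.990) and Mir497 at 0.976 (0.949 to 1.00). By counting error alone, 4 genes were lower in replicate 2 and 1, Mir15a, was higher, while the interval of Mir497 held 1. Over the 357 detected genes, 25.2% were called lower and 19.6% higher by this rule. Among the 165 genes with at least 1000 counts in both libraries, which hold all members but Mir497, read from the other strand, 39.4% were lower and 30.3% higher, a threshold chosen after seeing the data. The median difference in either direction was 1.06-fold for the 6 genes, 1.06-fold for those 165 genes and 1.10-fold for all 357. With edgeR's TMM or DESeq2's size factors in place of library totals, the interval of Mir195a held 1 as well. No test between the pools was possible, since each was sequenced once.

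**Figure D4:**
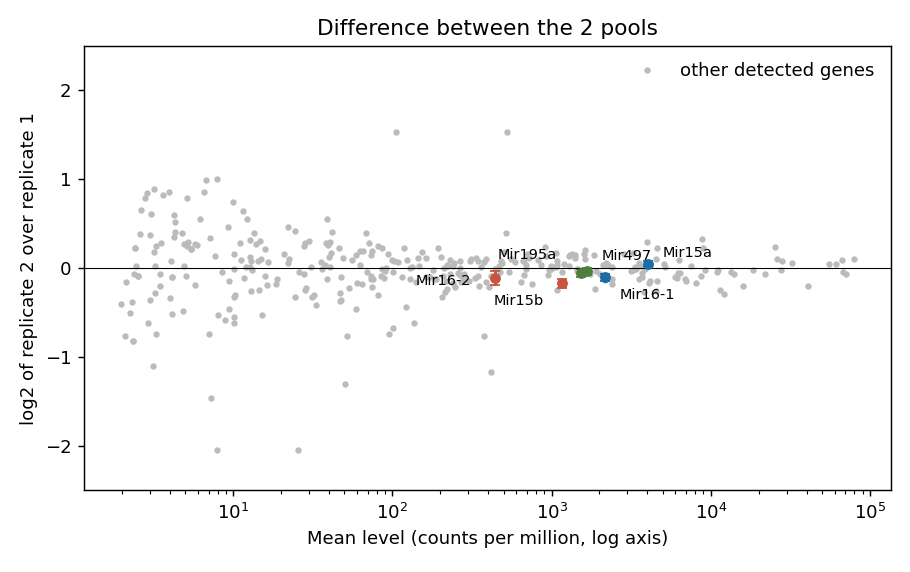
Log2 of replicate 2 over replicate 1 (y axis) against mean level in CPM (log x axis). Grey dots are the other 352 detected genes, and coloured points the 6 genes with 95% counting intervals. The 6 genes lie close to 0, from Mir15b at -0.17 to Mir15a at 0.05.

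The labelled tissue was checked against marker microRNAs. The epithelial list (miR-200 family, 5 of 5 detected) summed to 31476 to 31937 CPM, the endothelial marker Mir126a to 67001 to 68906 CPM, and the list of smooth muscle and mesenchyme (6 of 6 detected) to 83665 to 89328 CPM. Mir15a and Mir16-1 are well known from blood cells, so blood markers are given beside them. The erythroid list (Mir451a and Mir144, both detected, with no row named Mir486a or Mir486b) summed to 684 CPM in replicate 1 and 833 CPM in replicate 2. A row named Mir486 was detected, at 21.7 and 22.5 CPM, and is not in that sum. The leukocyte list (3 of 4 detected, Mir142b at 0 on its annotated strand, Mir142 not in the table) summed to 850 and 767 CPM. All lists were summed from the annotated strand alone. Reads opposite to Mir142b were not examined, so the leukocyte sum may leave out reads from that place. Lists of striated muscle (4 of 7 in the table detected, Mir1a-1, Mir133a-1 and Mir133a-2 at 0), liver (Mir122) and nervous tissue (1 of 6 in the table detected, Mir9-2 and the 3 Mir124a genes at 0) summed to 111 to 1237 CPM. Between the pools, replicate 2 was higher in the sums of striated muscle (1.33-fold), the erythroid list (1.22-fold) and smooth muscle and mesenchyme (1.07-fold), as it was in Mir15a. Single members of a list did not all follow its sum. Among striated muscle markers, replicate 2 over replicate 1 was 0.445 for Mir208a, against 2.90 for Mir208b, 2.89 for Mir206 and 1.47 for Mir499. Replicate 1 was higher in liver (1.69-fold), nervous tissue (1.52-fold), leukocytes (1.11-fold), endothelium (1.03-fold) and epithelium (1.01-fold), as it was in the other 5 members, Mir497 within counting error. In epithelium, replicate 2 over replicate 1 was 1.02 for Mir200a, 1.03 for Mir200b and 1.08 for Mir141. It was 0.972 for Mir200c and 0.967 for Mir429. The sum of nervous tissue was almost all Mir137 (166 and 108 CPM), while Mir9-3 went the other way (9 and 18 counts). The part of the listed cell types in the members' levels was not tested. A value of 0 does not show that a product was absent where copies of a gene share it. The mature products of Mir9-2 are also those of Mir9-1 and Mir9-3 in the RefSeq table, and the miR-1a, miR-133a and miR-124 genes are likewise known as copies, so their reads, like those of miR-16-5p, may not be placed in 1 gene.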

How the data were processed

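Small RNA of embryonic lung was sequenced in 2 libraries of 1 group. The deposited tables hold raw counts of reads for each microRNA gene on mm10 and annotation M4, per the labels and the readmes. Neither aligner nor counter is given in the sources used here. Of 3 count columns, the first (all reads), the second (annotated strand) and the third (opposite strand) were told apart by their totals. The second was used, and the third for Mir497. Summary lines were kept out of totals. CPM used the annotated-strand total, also for Mir497. GENCODE M21 (GRCm38, the same assembly as mm10) gave names and positions for 1894 of 1973 identifiers. The genes and lists were chosen with earlier results of these data known. Genes named were the 6 members, carriers of their seed, the genes ranked just above and below each member by mean CPM, and marker lists. Genes were compared by log2 CPM within libraries with an exact permutation test, also paired by library, and pools by ratios with exact binomial 95% intervals. On simulated counts without change, 96.4% of such intervals held the true ratio (169 genes). Those counts were drawn with counting error alone, as the intervals assume. The check thus covers the computation and not how the intervals hold between real pools. Alternatives were another strand column, other totals, edgeR 4.0.16 TMM, DESeq2 1.42.0 size factors, other minimum counts, a pseudocount of 1, other member sets and each replicate alone. Python 3.11.15, numpy 2.4.6, pandas 2.3.3, scipy 1.17.1, matplotlib 3.10.9 and R 4.3.3 were used.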

Additional observations from a re-analysis of the deposited data

How the results depend on the processing

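The 7 log2 differences between genes and clusters kept their direction with all reads regardless of strand, with 1 count added and in each replicate alone. The Dleu2 over Smc4 difference also kept it without the miR-16 genes. The strand setting and the added count could not turn a direction here. Almost no member reads lay off the strand used, and the lowest member count was 2456. With the library as a replicate block the differences are the same by construction (Mir15a over Mir15b 1.81), and paired exact sign flips, added after seeing the data, gave p = 0.5 each, the smallest possible. The share of the 6 genes, 1.10% of counts, moved to 1.07% with all reads regardless of strand, 0.523% with all reads of the library as the total, 1.20% with Mir143 left out of the total, 0.841% without the miR-16 genes, 0.935% without Mir497 and 8.33% with Mir322 and Mir503 added. TMM and DESeq2 size factors moved it by less than 1 SD. Replicate 1 alone gave 1.12% and replicate 2 alone 1.09%. With 2 values, each lies within 1 SD of their mean by construction. All 6 genes passed a minimum of 1 or of 100 counts. Of 357 detected genes, 160 were called between the pools, and 159 or 168 with the other scalings. Other minimum counts gave 182 of 712 genes with no minimum, 144 of 254 at 100 counts and 115 of 165 at 1000. The share called thus rose with the minimum. The minimum of 1000 was added after seeing the data. Depth does not limit these genes, but reads that map to several places do for Mir16-1 and Mir16-2. For the other members only annotated hairpins were searched, so such a loss of reads to places elsewhere in the genome was not tested.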

Other observations

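Genes next to the 6 in mean level give a scale for them. Mir15a (4053 CPM) lay between Mir369 (4103 ± 334 CPM) of the imprinted Dlk1-Dio3 region and Mir130b (3983 ± 568 CPM). Mir16-1 lay between Mir22 (2169 ± 148 CPM) and Mir324 (2135 ± 121 CPM), and Mir15b between Mir1193 (1166 ± 22.3 CPM) and Mir10b (1082 ± 130 CPM), which is embedded in the HoxD cluster. Mir497 stood just below Mir205 (1756 ± 60.5 CPM), known from basal and stratified epithelium, and just above Mir425 (1644 ± 30.3 CPM). Mir195a lay between Mir107 (1592 ± 125 CPM) and Mir28a (1470 ± 3.92 CPM), and Mir16-2 between Mir494 (467 ± 6.56 CPM) and Mir25 (439 ± 1.13 CPM) (all SD, n = 2). Most of these steps are within the spread of the pools, so exact ranks carry little weight.

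Reads opposite to an annotated microRNA were rarely as many as at Mir497b. In 10 rows of the tables most reads lay on the opposite strand with at least 1000 such reads over both libraries, and Mir497b ranked 7th among all rows by the number of opposite reads.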
